A study of Anolis sagrei with 10 samples.

Results

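The Hedgehog pathway and HAND2 were examined in limb buds of the brown anole, Anolis sagrei, a lizard. Of 9 genes chosen by name, 8 carried their symbol among the 25920 gene identifiers counted: SHH, SMO, GAS1, HHIP, GLI1, GLI2, GLI3 and HAND2. The ninth, PTCH1, was paired with no identifier and was not analysed here. The data were RNA sequencing libraries from 5 forelimb and 5 hindlimb samples of wild-type embryos at stage 7, numbered 1 to 5 in each limb. RNA came from pairs of buds with no sorting of cells named, so every cell type of a bud could contribute. The labels do not say whether each number marks a separate embryo or a pool. The main fit compares the limbs within each number, so its p-values measure how the limb difference varied between numbers. A fit without that pairing measures the spread between samples. Either may be partly technical.

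Sonic hedgehog is the secreted signal of the zone of polarizing activity, a patch of mesenchyme at the posterior margin of the vertebrate limb bud. By binding Patched it releases Smoothened from inhibition. GLI2 and GLI3 proteins are then no longer processed into repressors. In mouse and chick limbs HAND2 acts upstream of SHH on the posterior side, GLI3 repressor dominates on the anterior side, and the signal sets the number and identity of digits.

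None of the 8 genes differed between forelimb and hindlimb past the threshold, a Benjamini-Hochberg adjusted p of 0.05 over 15595 genes (quasi-likelihood test of edgeR, replicate number as a block). By the same test 1.33% of all tested genes were called (0.705% in the forelimb direction and 0.628% in the hindlimb direction); without the block 0.199% were called, and again none of the 8. An unadjusted p under 0.05 was given to 2 of the 8, GLI1 and GLI3, both higher in forelimb, where 13.8% of all tested genes had such a p. The median log2 fold change, forelimb over hindlimb throughout, was 0.06 over the 8 genes and 0.00 over all tested genes. In none of the 8 genes did the libraries of one limb all lie above those of the other, an arrangement found in 1.19% of tested genes. The largest contrast lay elsewhere: SHH spanned 0.0467 to 14.5 CPM (reads of a gene scaled to library size with TMM, the trimmed mean of M-values) across the libraries, and most of that spread lay between replicate numbers.

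Libraries held 41808148 to 54998469 counts. The limb labels were checked with 3 limb-type genes, whose libraries did not overlap between the limbs: TBX5, the forelimb T-box factor, averaged 479 CPM ± 67.3 in forelimb buds and 1.82 CPM ± 0.700 in hindlimb buds (SD, n = 5 each). The hindlimb factors TBX4 and PITX1 averaged 0.267 and 0.311 CPM in forelimb and 40.9 and 36.2 CPM in hindlimb. Hindlimb replicate 4 had the fewest identifiers with a count, 17132 where the other libraries had 18024 to 19611, and the lowest TMM factor, 0.928.

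**Figure D1:**
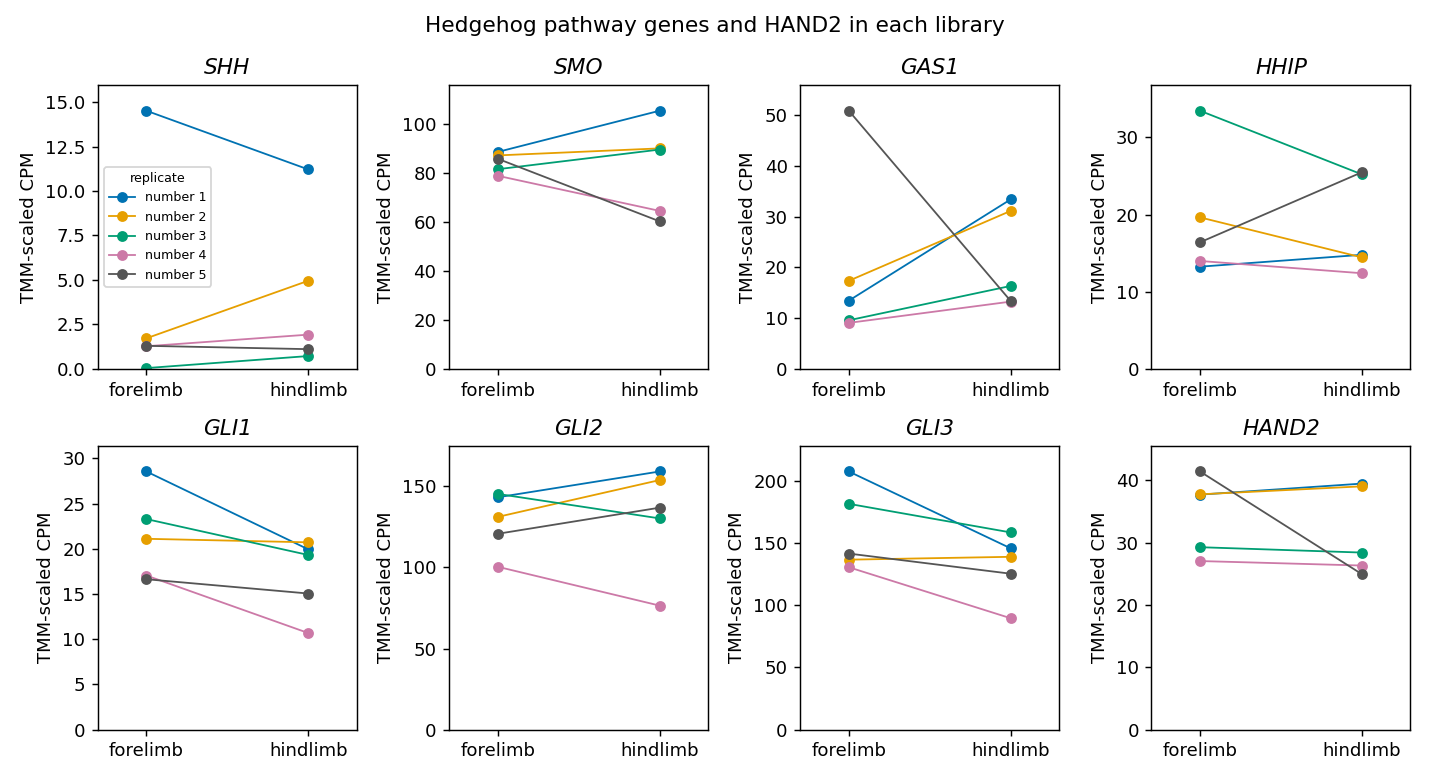
TMM-scaled CPM (vertical axis, from 0, a scale of its own in each panel) of SHH, SMO, GAS1, HHIP, GLI1, GLI2, GLI3 and HAND2 in forelimb and hindlimb libraries. Each point is a library and each line joins the forelimb and hindlimb library of the same replicate number; SHH is at 14.5 and 11.2 CPM in both libraries of number 1, and GAS1 is at 50.9 CPM in forelimb replicate 5.

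SHH (ENSACAG00000011060), the ligand, was at 14.5, 1.72, 0.0467, 1.28 and 1.30 CPM in forelimb replicates 1 to 5, from 633, 78, 2, 69 and 59 counts. In hindlimb replicates 1 to 5 it was at 11.2, 4.96, 0.723, 1.93 and 1.11 CPM, from 480, 213, 34, 75 and 52 counts. Both libraries of number 1 stood above the rest of their limb, both of number 3 were the lowest of theirs, and the limbs overlapped. In bulk buds, fewer cells that express a gene and less of its RNA per cell cannot be told apart.

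Between the limbs the log2 fold change of SHH was -0.69 ± 0.44 (SE; 95% interval -1.67 to 0.29), with an edgeR adjusted p of 0.528. Within replicate numbers it was higher in forelimb for numbers 1 and 5 and lower in forelimb for numbers 2, 3 and 4. The forelimb over hindlimb ratios for numbers 1 to 5 were 1.29, 0.347, 0.0645, 0.662 and 1.17, with exact 95% intervals of 1.15 to 1.46, 0.264 to 0.452, 0.00751 to 0.252, 0.471 to 0.931 and 0.792 to 1.73. These intervals cover counting error only. Number 5 was the only one whose interval held equality, and numbers 1 and 2 lay on opposite sides of it. The fold change was -0.08 ± 1.09 without the replicate block (edgeR adjusted p 1), -0.16 with limma voom, -0.36 without number 3 and -1.09 without number 1, and none of these fits called it.

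The spread of SHH over libraries was far wider than that of the other 7 genes. Forelimb replicate 1 had 311 times the CPM of forelimb replicate 3, with a counting interval of 85.7 to 2570 because the lower value rests on 2 counts. Against hindlimb replicate 3, at 34 counts, forelimb replicate 1 was 20.1 times as high (14.2 to 29.2). The highest library was 5.61 times the lowest for GAS1 and 1.66 to 2.70 times for the other 6 genes. Among 2617 tested genes with a mean of 2 to 8 CPM, SHH included, the median range of log2 CPM was 1.40. A range at least as wide as the 7.32 of SHH was found in 7 genes, SHH itself counted, or 0.267%. Of the sum of squares of SHH's log2 CPM, 84.4% lay between replicate numbers, 5.33% between limbs and 10.3% in the rest.

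SHH is also made by notochord, floor plate and gut endoderm in vertebrate embryos, so markers of those tissues were read beside it. Of 10 listed markers 5 had a symbol and 3 were tested, and their summed level was 2.66 to 3.65 CPM in forelimb and 2.25 to 4.05 CPM in hindlimb libraries. The defining notochord gene T was at 0 to 0.344 CPM in forelimb, highest in replicate 1, and 0 to 0.279 CPM in hindlimb, highest in replicate 2, and the gut gene CDX2 at 0 to 0.132 CPM in forelimb and 0 to 0.213 CPM in hindlimb. FOXA1 was at 0.583 to 1.20 CPM in forelimb buds and 0.745 to 1.07 CPM in hindlimb buds. The summed level was highest of its limb in forelimb replicate 1, at 3.65 CPM, where SHH was highest. It was lowest in forelimb replicate 3, at 2.66 CPM, where SHH was lowest. Among hindlimb libraries the sum was lowest in replicate 3, at 2.25 CPM, where SHH was also lowest. It was 3.69 CPM in hindlimb replicate 1, where SHH was highest, and 4.05 CPM in hindlimb replicate 2. Neural markers, 5 of 9 with a symbol and 3 tested, summed to 3.45 to 6.28 CPM in forelimb and 2.80 to 6.28 CPM in hindlimb libraries, with 6.28 CPM in both libraries of number 1 and 6.07 and 5.74 CPM in those of number 3. Erythroid markers, 8 of 8 with a symbol and 6 tested, had the highest sum of each limb in number 1. Their sum was 148 CPM in forelimb replicate 1 against 12.1 to 15.3 CPM in the other forelimb libraries. It was 25.3 CPM in hindlimb replicate 1 against 6.06 to 17.9 CPM in the other hindlimb libraries. For endothelial markers, 5 of 7 had a symbol and were tested. Their sum was 180 CPM in forelimb replicate 1 against 110 to 138 CPM in the other forelimb libraries. In hindlimb replicate 1 that sum was 180 CPM, against 122 to 150 CPM in the other hindlimb libraries. Most of the endothelial sum was FLI1, at 75.7 to 122 CPM in forelimb and 87.4 to 123 CPM in hindlimb libraries. The part of any of these lists in the SHH level was not tested.

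Of the chromosomal neighbours of SHH, LMBR1 and RNF32 were read beside it. In RefSeq's annotation of the assembly rAnoSag1.mat, RNF32 and then LMBR1 lie on one side of SHH and RBM33 on the other. LMBR1 carries the distant limb enhancer of Shh in an intron in mouse and human. It averaged 47.7 CPM ± 4.65 in forelimb buds and 51.1 CPM ± 4.73 in hindlimb buds (SD, n = 5 each), and its log2 fold change was -0.10 ± 0.07 (edgeR adjusted p 0.589). RNF32 averaged 2.25 CPM ± 0.967 in forelimb buds and 2.29 CPM ± 1.49 in hindlimb buds, and its log2 fold change was 0.07 ± 0.34 (edgeR adjusted p 0.951). Both thus differed less over libraries than SHH, whose SD exceeded its mean in each limb.

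A comparison was made with 8127 other genes that carried a symbol and averaged 5 CPM or more. The 3 whose log2 CPM followed SHH most closely over the 10 libraries, with each limb's mean taken off, were PTP4A3, ALX4 and CDC25B. Pearson's r was 0.960, 0.942 and 0.939 and Spearman's rho 0.915, 0.915 and 0.903, given as a description because the 10 libraries form 5 pairs and these are the highest of many. ALX4, a homeobox factor of the anterior limb mesenchyme in mouse, was at 21.5, 10.9, 7.91, 10.9 and 12.9 CPM in forelimb replicates 1 to 5 and at 19.2, 19.0, 13.3, 15.7 and 13.9 CPM in hindlimb replicates 1 to 5. Like SHH it was highest in number 1 and lowest in number 3 in both limbs.

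SMO (ENSACAG00000000255), the transmembrane protein that passes the signal into the cell, was at 88.4, 87.0, 81.4, 78.7 and 85.7 CPM in forelimb replicates 1 to 5. Hindlimb libraries in the same order were at 105, 89.9, 89.4, 64.4 and 60.2 CPM. The forelimb libraries were tightly grouped and lay inside the range of the hindlimb libraries, whose SD was 19.0 CPM where the forelimb SD was 4.05 CPM. The log2 fold change was 0.07 ± 0.10 (SE; 95% interval -0.15 to 0.29), with an edgeR adjusted p of 0.825. On the linear scale that interval runs from 0.901-fold to 1.23-fold.

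GAS1 (ENSACAG00000014344), a surface co-receptor that helps cells receive SHH in mouse limb and face, was at 13.5, 17.4, 9.59, 9.08 and 50.9 CPM in forelimb replicates 1 to 5. Hindlimb replicates 1 to 5 gave 33.4, 31.2, 16.4, 13.3 and 13.4 CPM. It was lower in forelimb for numbers 1 to 4, with log2 differences of -1.31, -0.84, -0.77 and -0.55, and higher in forelimb for number 5, with a log2 difference of 1.92. The fit over all 5 numbers gave -0.37 ± 0.54 (SE; 95% interval -1.77 to 1.04) and an edgeR adjusted p of 0.843. Without number 5 it gave -0.87 ± 0.14 and an edgeR adjusted p of 0.00933, in a fit where 1.45% of 15622 genes were called. The same library, forelimb replicate 5, had the highest summed level of limb mesenchyme markers in its limb (6 of 9 with a symbol, all 6 tested), 376 CPM against 239 to 310 CPM in the other forelimb libraries, while hindlimb libraries had 281 to 408 CPM. Within that list TWIST1, singled out after its values were seen, was at 118 CPM there and at 37.5 to 61.8 CPM in the other forelimb libraries. Without TWIST1 the sum was no longer highest there, at 257 CPM against 202 to 263 CPM in the other forelimb libraries, with 235 to 322 CPM in hindlimb libraries. The part of these markers in the GAS1 value was not tested.

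HHIP (ENSACAG00000003315), a surface protein that binds Hedgehog ligands and is itself induced by the signal, was at 13.3, 19.6, 33.5, 14.0 and 16.4 CPM in forelimb replicates 1 to 5. Against these, hindlimb replicates 1 to 5 were at 14.8, 14.5, 25.2, 12.4 and 25.5 CPM. The limbs overlapped, and its log2 fold change was 0.05 ± 0.15 (SE; 95% interval -0.28 to 0.37) with an edgeR adjusted p of 0.923. Of its sum of squares 80.6% lay between replicate numbers and 0.254% between limbs. Forelimb replicate 3, the library with 2 counts of SHH, had the highest HHIP, and forelimb replicate 1, the library with the highest SHH, had the lowest HHIP of its limb. The hindlimb did not repeat this order. Its replicate 1, highest in SHH, had more HHIP than replicates 2 and 4, and HHIP was highest in replicate 5, just above replicate 3.

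IHH, from the list of other pathway genes, was set beside this after its values were seen. IHH, the ligand of growing cartilage, was at 5.25, 6.84, 19.8, 11.3 and 8.07 CPM in forelimb replicates 1 to 5 and at 11.8, 6.52, 17.3, 4.88 and 13.1 CPM in hindlimb replicates 1 to 5. It was highest in number 3 in both limbs, where SHH was lowest, and its log2 fold change was -0.08 ± 0.31 (edgeR adjusted p 0.939). Any link of HHIP or IHH to the SHH level was not tested. DHH, the third ligand, averaged 0.560 CPM ± 0.171 in forelimb buds and 0.574 CPM ± 0.0899 in hindlimb buds (SD, n = 5 each).

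**Figure D2:**
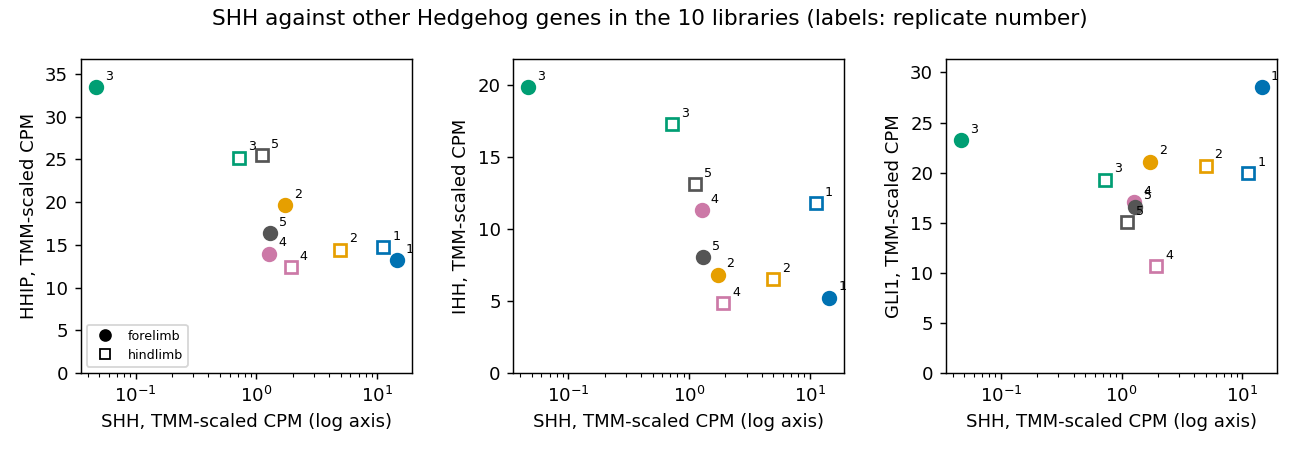
TMM-scaled CPM of HHIP, IHH and GLI1 (vertical axes, from 0) against that of SHH (horizontal log axis) in the 10 libraries; filled circles are forelimb, open squares hindlimb, and the small figures are replicate numbers. HHIP and IHH are highest at the lowest SHH, in forelimb replicate 3 at 33.5 and 19.8 CPM. GLI1 is highest in forelimb replicate 1 at 28.5 CPM, and forelimb replicate 3 comes next at 23.3 CPM.

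GLI1 (ENSACAG00000006541), an activator whose transcription is a standard readout of the signal, was at 28.5, 21.1, 23.3, 17.0 and 16.6 CPM in forelimb replicates 1 to 5. The hindlimb libraries had 19.9, 20.7, 19.3, 10.7 and 15.1 CPM in the same order. It was higher in forelimb in 5 of 5 numbers, by 0.52, 0.03, 0.27, 0.67 and 0.14 on the log2 scale, although the limbs overlapped. The log2 fold change was 0.33 ± 0.12 (SE; 95% interval 0.07 to 0.58), with an unadjusted p of 0.0162 and an edgeR adjusted p of 0.235. The difference did not pass the threshold over all genes, with or without the block. Without the block the unadjusted edgeR p was 0.147. Without number 4 the log2 fold change was 0.24, the smallest of the fits that leave out a number, with an unadjusted edgeR p of 0.0681. In forelimb replicate 3, the library with 2 counts of SHH, GLI1 at 23.3 CPM was below only forelimb replicate 1.

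GLI3 (ENSACAG00000017547), the main repressor of the pathway in the limb when SHH is absent, was at 208, 137, 182, 131 and 142 CPM in forelimb replicates 1 to 5. Hindlimb libraries in the same order were at 146, 139, 159, 89.6 and 125 CPM. It was higher in forelimb in 4 of 5 numbers and the limbs overlapped. The log2 fold change was 0.28 ± 0.08 (SE; 95% interval 0.10 to 0.46), with an unadjusted p of 0.00534 and an edgeR adjusted p of 0.148. With no filter on low counts the edgeR adjusted p was 0.0127, in a fit that called 3.03% of 22981 genes. Errors differed in that fit: the SE was 0.13 against 0.54 in the main fit for GAS1, and 0.18 against 0.15 for LRP2. Its calls thus may not rest on the spread between numbers as those of the main fit do. Without the block the unadjusted edgeR p of GLI3 was 0.114. Leaving out a number gave log2 fold changes of 0.21 to 0.36 and edgeR adjusted p of 0.133 to 0.431.

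GLI2 (ENSACAG00000004133), which works chiefly as an activator in mouse, was at 143, 131, 145, 100.4 and 121 CPM in forelimb replicates 1 to 5. Hindlimb replicates 1 to 5 gave 159, 154, 130.2, 76.5 and 137 CPM. The limbs overlapped and the log2 fold change was -0.0037 ± 0.09 (SE; 95% interval -0.20 to 0.19), with an edgeR adjusted p of 0.991. Of its sum of squares 84.4% lay between replicate numbers. Hindlimb replicate 4 was the lowest of the 10 libraries for GLI1, GLI2, GLI3 and HHIP, and it is also the library with the fewest identifiers detected; the part of that in these values was not tested.

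Ratios within a library compare the GLI genes without regard to depth. Since gene lengths were not given, only the difference of a ratio between limbs can be read. GLI3 over GLI2 was 1.45, 1.04, 1.25, 1.30 and 1.17 in forelimb replicates 1 to 5 and 0.917, 0.904, 1.22, 1.17 and 0.917 in hindlimb replicates 1 to 5. It was higher in forelimb in 5 of 5 numbers, while the ranges of the limbs overlapped. GLI1 over GLI2 averaged 0.166 ± 0.0222 in forelimb and 0.132 ± 0.0147 in hindlimb (SD, n = 5 each), and was also higher in forelimb in 5 of 5 numbers. GLI1 over GLI3 averaged 0.134 ± 0.0137 in forelimb and 0.129 ± 0.0131 in hindlimb, a difference smaller than the SD, and was higher in forelimb in 4 of 5 numbers. These ratios were chosen after the values were seen and were not tested.

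HAND2 (ENSACAG00000005500), the basic helix-loop-helix factor that acts upstream of SHH, was at 37.7, 37.7, 29.3, 27.0 and 41.4 CPM in forelimb replicates 1 to 5. Against these, hindlimb replicates 1 to 5 were at 39.5, 39.0, 28.4, 26.3 and 24.9 CPM. Numbers 1 to 4 were nearly equal in the 2 limbs, with log2 differences of -0.07, -0.05, 0.04 and 0.04, and number 5 was higher in forelimb by 0.73. The log2 fold change was 0.14 ± 0.12 (SE; 95% interval -0.11 to 0.39), with an edgeR adjusted p of 0.650, and without number 5 the log2 fold change was -0.0032. In number 3, with the lowest SHH, HAND2 stood at 29.3 CPM in the forelimb and 28.4 CPM in the hindlimb library, between the lowest and the highest of the other numbers in each limb. The 3 genes that followed HAND2 most closely, by the measure used for SHH, were MIDN, TLN1 and HERC1, with Pearson's r of 0.985, 0.973 and 0.963 and Spearman's rho of 0.939, 0.988 and 0.952 over the 10 libraries.

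**Figure D3:**
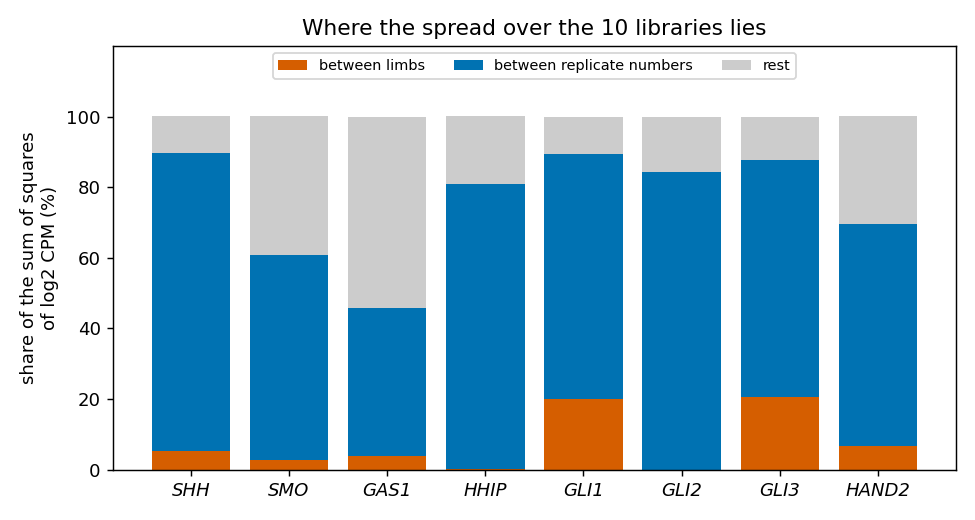
Share (%) of the sum of squares of log2 CPM over the 10 libraries that lay between the 2 limbs, between the 5 replicate numbers and in the rest, for each of the 8 genes. The share between limbs was 20% for GLI1 and 20.7% for GLI3 and at most 6.67% for the other 6, while the share between numbers was 41.7% to 84.4%.

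Over all tested genes the median share was 65.9% between replicate numbers and 5.55% between limbs. SHH, GLI2, HHIP, GLI1 and GLI3 lay above that median for numbers, at 84.4%, 84.4%, 80.6%, 69.3% and 66.9%, and HAND2, SMO and GAS1 lay below it, at 62.8%, 58.1% and 41.7%. GLI1 and GLI3 were the only ones of the 8 with a share between limbs of over 3 times the median.

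**Figure D4:**
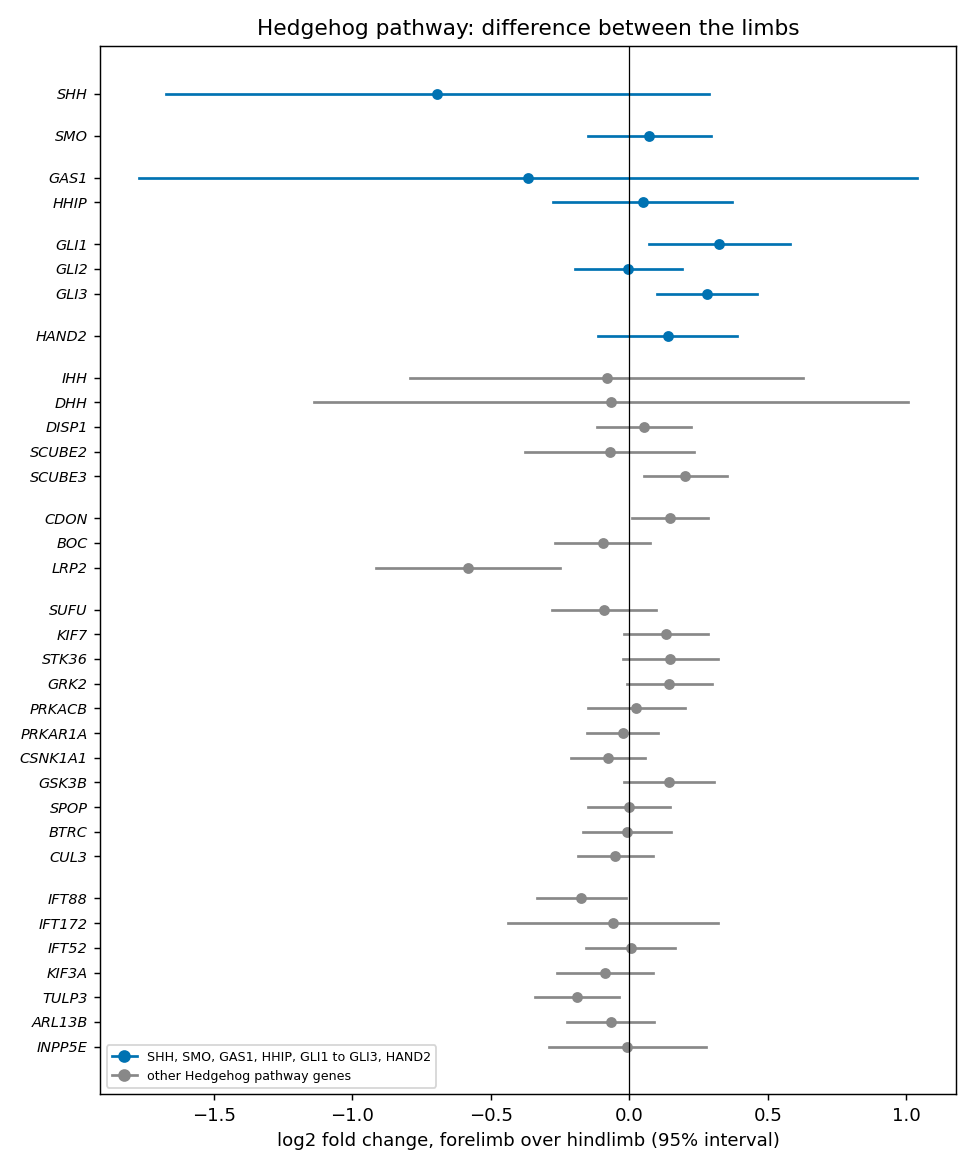
Log2 fold change, forelimb over hindlimb, with its 95% interval, for the 8 genes (blue) and for other Hedgehog pathway genes tested (grey), grouped by role; the vertical line marks equality. Of the 8, GLI1 and GLI3 lie right of the line with intervals that leave it out, and SHH and GAS1 have the widest intervals; of the other genes 5 have such intervals, LRP2 farthest left at -0.58.

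Of 35 other Hedgehog pathway genes listed, 27 had a symbol and were tested, none was called in either direction, beside 1.33% of all tested genes, and 5 had an unadjusted p under 0.05 (18.5%, beside 13.8% of all tested genes): LRP2, SCUBE3, TULP3, IFT88 and CDON. Their log2 fold changes ran from -0.58 to 0.20 with a median of -0.02. The 2 with the smallest p were LRP2 and SCUBE3. LRP2, a large endocytic receptor that binds SHH in the mouse forebrain and is also a gene of kidney epithelium, was at 5.71, 6.27, 6.11, 4.23 and 5.67 CPM in forelimb replicates 1 to 5 and at 8.53, 7.96, 8.59, 7.88 and 8.60 CPM in hindlimb replicates 1 to 5. All forelimb libraries lay below all hindlimb libraries. The limbs did not overlap in 1 of the 27 genes (3.7%), beside 1.19% of all tested genes. The log2 fold change of LRP2 was -0.58 ± 0.15 (edgeR adjusted p 0.0914). DESeq2 with the block gave an adjusted p of 0.0207 and edgeR with no filter gave 0.0471. Those fits called 545 and 697 genes, where the main fit called 208. Without the block the edgeR adjusted p of LRP2 was 0.522, and leaving out a number gave 0.0962 to 0.292.

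Markers of flank and mesonephros, the embryonic kidney beside the limb bud, were read beside LRP2, and 4 of 6 had a symbol and 3 were tested. Their sum was 32.5 to 43.7 CPM in forelimb and 23.1 to 37.2 CPM in hindlimb libraries. Most of that sum was EMX2, at 28.1 to 39.5 CPM in forelimb and 17.5 to 29.3 CPM in hindlimb libraries. GATA3 and WT1 went the other way from the sum, and GATA3 averaged 3.53 CPM in forelimb and 4.98 CPM in hindlimb libraries. WT1 was lower in forelimb, at 0.177 to 1.40 CPM against 1.18 to 2.62 CPM in hindlimb, and its log2 fold change was -2.05 ± 0.45 (edgeR adjusted p 0.0414). That call was lost without the block (edgeR adjusted p 0.671), with limma voom (0.0742) and without any of numbers 2, 3, 4 or 5 (0.0910 to 0.177). GATA3 was not called, with a log2 fold change of -0.50 ± 0.27 (edgeR adjusted p 0.442), and it was -0.18 without number 1. EMX2 was higher in forelimb, at 0.59 ± 0.09 on the log2 scale (edgeR adjusted p 0.00554, 0.354 without the block and 0.0555 without number 2). PAX2, a defining gene of the mesonephros, was at 0 to 0.0917 CPM in forelimb and 0 to 0.411 CPM in hindlimb. The part of these markers in the LRP2 values was not tested.

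SCUBE3, of a family of secreted proteins that help release the ligand, averaged 239 CPM ± 27.1 in forelimb buds and 207 CPM ± 17.6 in hindlimb buds (SD, n = 5 each), and its log2 fold change was 0.20 ± 0.07 (edgeR adjusted p 0.207).

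By role, the 11 intracellular transducers tested, among them SUFU and KIF7, had log2 fold changes of -0.09 to 0.15 and none had an unadjusted p under 0.05. The 2 with the highest mean CPM, CUL3 and CSNK1A1, had log2 fold changes of -0.05 ± 0.06 and -0.08 ± 0.06, with edgeR adjusted p of 0.795 and 0.635. Of the 7 primary cilium genes, on which vertebrate Hedgehog signalling depends, 6 had a fold change below 0 and none was called. Their log2 fold changes ran from -0.19 to 0.0047, some of them close to equality. Of all 15595 tested genes, 7791 had a fold change below 0 and 1.33% were called. The co-receptors CDON and BOC had log2 fold changes of 0.15 ± 0.06 and -0.10 ± 0.08, with edgeR adjusted p of 0.330 and 0.647.

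Of 9 genes listed as responsive to Hedgehog in vertebrate tissues, 6 were tested and none was called, beside 1.33% of all tested genes. Their median log2 fold change was 0.06. CDK6, a cell cycle kinase, averaged 15.1 CPM ± 3.12 in forelimb buds and 10.7 CPM ± 1.80 in hindlimb buds (SD, n = 5 each) and was higher in forelimb in 5 of 5 numbers. Its log2 fold change was 0.50 ± 0.12 (edgeR adjusted p 0.0624). The adjusted p was 0.00891 by DESeq2 with the block and 0.0207 by edgeR with no filter. Those fits called 545 and 697 genes, where the main fit called 208. Without the block the edgeR adjusted p of CDK6 was 0.854, and leaving out a number gave 0.0564 to 0.238. MYCN, a proto-oncogene of proliferating cells, and JAG1, a Notch ligand, had log2 fold changes of 0.05 ± 0.06 and 0.09 ± 0.09, with edgeR adjusted p of 0.796 and 0.697.

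The limbs differed more among other genes of the anterior-posterior axis. Of 32 listed genes 23 were tested and 5 were called, all higher in forelimb, or 21.7%, beside 0.705% called higher in forelimb among all tested genes. The 5 were HOXD10, HOXD11, SALL1, ETS1 and ETV5, and the median of the 23 was 0.05. Earlier results of these data were known when the list was made, so its count is a description. HOXD10 and HOXD11, posterior HOX factors that in mouse take part in starting Shh expression, had log2 fold changes of 1.51 ± 0.09 and 0.89 ± 0.08 with edgeR adjusted p of 2.43e-06 and 0.000113. HOXD10 averaged 59.8 CPM in forelimb buds against 20.8 CPM in hindlimb buds.

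ETS1, an ETS factor that activates the limb enhancer of Shh in mouse, was at 36.6, 25.2, 26.0, 22.3 and 17.5 CPM in forelimb replicates 1 to 5 and at 16.9, 17.7, 14.9, 11.7 and 12.9 CPM in hindlimb replicates 1 to 5. Only forelimb replicate 5 lay within the hindlimb range. Its log2 fold change was 0.76 ± 0.12 (edgeR adjusted p 0.00669), and the adjusted p was 0.255 without the block, 0.0549 without number 3 and 0.0536 without number 4. ETV5, an ETS factor that limits Shh expression on the anterior side in mouse, averaged 144 CPM ± 10.5 in forelimb buds and 118 CPM ± 13.9 in hindlimb buds, and its log2 fold change was 0.29 ± 0.06 (edgeR adjusted p 0.0414). That call was lost without the block (edgeR adjusted p 0.797) and without any of numbers 2, 3, 4 or 5 (0.0622 to 0.211). Its partner ETV4 was not called, at 0.09 ± 0.08 (edgeR adjusted p 0.681). SALL1, a zinc finger factor of the limb mesenchyme, averaged 105 CPM ± 24.1 in forelimb buds and 58.9 CPM ± 9.18 in hindlimb buds, and its log2 fold change was 0.82 ± 0.10 (edgeR adjusted p 0.000617, and 0.0642 without the block).

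All 4 tested anterior genes, ALX1, ALX4, PAX1 and PAX9, had a fold change below 0, between -0.93 and -0.40. None was called, with edgeR adjusted p of 0.254 to 0.749. Of all 15595 tested genes, 7791 had a fold change below 0 and 1.33% were called. A further part of the list held posterior genes together with genes of the loop between SHH, GREM1 and FGF signals. Of its 12 tested genes, 8 had a fold change above 0 and 4 below 0. In that part BMP2 and BMP4 had log2 fold changes of -0.48 ± 0.12 and -0.30 ± 0.09, with edgeR adjusted p of 0.0648 and 0.122. HOXA13, a factor of the distal limb bud, had 0.44 ± 0.10 and an edgeR adjusted p of 0.0535. The genes named in this paragraph, and WT1, GATA3, EMX2, PAX2, SUFU, KIF7, CDON, BOC, DHH, LMBR1 and RNF32, were picked out after their values were seen.

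In the authors' deposited table none of the 8 genes differed between the limbs, each with an adjusted p of 1, where 0.414% of its 22457 genes had an adjusted p under 0.05. The largest log2 fold changes of the 8 in the authors' deposited table were 0.21 ± 0.14 for GLI1 and 0.20 ± 0.13 for GLI3. For SHH and GAS1 the authors' deposited table gave -0.0044 ± 0.07 and -0.02 ± 0.12. The edgeR fit without the block gave -0.08 ± 1.09 and -0.10 ± 0.47, with far larger errors. The headers do not state whether the authors' values were shrunk towards 0. Their sizes, and their order among the 8, may therefore not compare with the fold changes given here.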

How the data were processed

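Poly(A) RNA of 10 libraries was sequenced, 5 per limb, with a stranded kit, per the labels' protocols. STAR, featureCounts and DESeq2 were used, per the submitters' processing notes. The sources used here give neither versions nor the genome build, annotation release and strand setting. Gene identifiers begin with ENSACAG, Ensembl's prefix for Anolis carolinensis, a related species. How reads of A. sagrei were assigned to these genes is not stated. Counts of overlapping genes, close paralogues and genes that differ between the species thus carry an unmeasured uncertainty. The deposited tables hold raw counts per gene, 1 library each. The authors' deposited table holds, per the file headers, a normalised mean signal, log2 fold changes, a test score and p-values; its symbols were used (12476 of 22457 genes).

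Counts were tested in R 4.3.3 with edgeR 4.0.16 (quasi-likelihood, robust, TMM, minimum count 10 and minimum total 15, 15595 genes), with limb and replicate number as terms; a 95% interval uses the test's SE. CPM are TMM-scaled on library totals, and log2 CPM use a prior count of 2. Alternatives were no block, other scalings and filters, DESeq2 1.42.0, limma 3.58.1 voom and leaving out each number. Pairing was checked by correlating deviations from limb means over 9747 genes: same-numbered libraries gave 0.511 to 0.754 and others -0.406 to 0.118. Data were simulated for this comparison over 15295 genes, with changes set only in genes above a floor of mean count. The block fit recovered 70.0%, 85.7% and 95.0% of genes changed 1.5-fold, 2-fold and 4-fold, with 8 false among 174 calls. Each change was set equal in every number, and changes under 1.5-fold were not simulated. The rates therefore do not give the recovery for SHH or GAS1, whose difference varied widely between numbers, or for any other single gene. Recovery of changed genes below that floor was not simulated.

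The genes and lists were chosen with earlier results of these data known. From each list the text names called genes, the 2 with the smallest p and the 2 with the highest mean CPM. RefSeq's gene table matched none of the count tables' identifiers and served only for gene order. Results of 1 pathway gene are not reported here, although counts over the list include it.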

Additional observations from a re-analysis of the deposited data

Results flagged for a closer look

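In each limb the gap between an extreme library and its nearest neighbour was set against the range of the 5 libraries for 52 sets of values. It exceeded Dixon's limit of 0.71 in 4 sets, and chance gives about 1 in 20 where values are normally distributed. The gaps were taken on CPM, and neither normality nor the log2 scale was tested. The flags therefore hold for CPM only. SHH was at 14.5 CPM in forelimb replicate 1, where the nearest forelimb library was at 1.72 CPM. In log2 CPM these were 3.86 and 0.82, and the lowest forelimb library was at -3.46. GAS1 was at 50.9 CPM in forelimb replicate 5, where the nearest forelimb library was at 17.4 CPM. Its log2 CPM values were 5.67 and 4.12, with the lowest forelimb library at 3.19. CSNK1A1 was at 361 CPM in hindlimb replicate 4, where the nearest hindlimb library was at 307 CPM. HOXD10 was at 24.6 CPM in hindlimb replicate 3, where the nearest hindlimb library was at 20.5 CPM.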

How the results depend on the processing

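Over 12 alternatives the 8 genes gave 96 fold changes, of which 86 kept their direction and their side of the threshold, 2 kept the direction and gained a call (GAS1 without replicate number 5 and GLI3 with no filter, 0.28) and 8 changed sign, all without a call. SHH, GAS1, GLI1 and GLI3 kept their direction in all 12. When a number was left out SHH ran from -1.09 to -0.36, GLI1 from 0.24 to 0.41 and GLI3 from 0.21 to 0.36. GLI1 and GLI3 were both lowest without number 4. Leaving out each number gave -0.87 to -0.092 for GAS1, -0.032 to 0.16 for SMO, -0.046 to 0.23 for HHIP, -0.10 to 0.059 for GLI2 and -0.0032 to 0.20 for HAND2; upper quartile scaling gave 0.0064 for GLI2. Of the 8 genes, 1 was called with no filter and 0 to 1 when a number was left out.

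Genes called, 208 with the block, were 31 without the replicate block (16 higher in forelimb, 15 in hindlimb), 697 with no filter (409 and 288), 545 with DESeq2 (310 and 235) and 58 to 330 when a number was left out (30 to 207 and 28 to 123). The axis list had 2 calls without the replicate block, HOXD10 and HOXD11, 9 with no filter, 8 with DESeq2 and 3 to 7 when a number was left out. The other pathway list and the responsive list each had 1 call with no filter and 1 with DESeq2, LRP2 and CDK6. IHH ran from -0.39 to 0.19 and DHH from -0.22 to 0.15 when a number was left out. Beside SALL1, ETS1, ETV5, WT1 and EMX2, whose values without the block stand with the comparisons, leaving out the replicate block changed no other call among the genes named here. The cause of these changes was not tested. Leave-out fits also hold fewer samples, and the fit with no filter gave other errors, such as an SE of 0.13 for GAS1 where the main fit gave 0.54. Depth limits the low SHH values, 2 counts in forelimb replicate 3.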
